A study of Homo sapiens with 6 samples.

Results

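The genes described here are 10 members of the Wnt pathway that epithelial cells are known to use: the ligands WNT5A, WNT5B, WNT7A, WNT7B and WNT10A, the receptors FZD6 and LRP6, the secreted antagonist DKK1, the nuclear factor TCF7L2 and the feedback target AXIN2. They were chosen by symbol, and all 10 were found by Entrez ID among the 23459 genes of the count table. MCF10A is an untransformed human mammary epithelial cell line. The siCtrl cells received a non-targeting siRNA and the siYAP/TAZ cells siRNA against YAP and TAZ, each at 20 nM with a lipid reagent. YAP is encoded by YAP1 and TAZ by WWTR1. Both groups carry the word WT in their descriptions and grew in the same medium with horse serum, insulin, hydrocortisone, cholera toxin and EGF. Each group has 3 libraries, made by 3′ mRNA-Seq, in which reads start near the polyadenylated end of each RNA. The siRNA sequences and the time after transfection are not given in the sources used here, and a single cell line was tested.

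Wnt proteins are secreted lipid-modified ligands that bind Frizzled receptors. Together with the co-receptors LRP5 or LRP6 they stop the destruction complex of AXIN, APC and GSK3 from degrading β-catenin, which then acts on DNA through TCF/LEF factors and induces genes such as AXIN2. Ligands such as WNT5A mostly act through other branches that do not need β-catenin, among them the planar polarity branch, and DKK1 blocks the β-catenin branch by binding LRP5 and LRP6. In the mammary gland, Wnt signals are known for their role in basal and progenitor cells, and YAP and TAZ are known to interact with the destruction complex.

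For 2 libraries the labels disagree. Groups and replicate numbers follow the description, from which the columns of the table are also named. By it, siCtrl replicate 2 and siYAP/TAZ replicate 2 carry titles and genotype entries of the opposite group. Library totals ranged from 3175149 to 4317286 counts. YAP1 had 189, 204 and 210 CPM (counts relative to the library total, with TMM scaling) in siCtrl and 116.5, 118 and 112 in siYAP/TAZ. WWTR1 had 109, 109 and 102 against 70.5, 67.1 and 59.8 CPM, so both targeted genes went with the descriptions and not with the titles. The log2 fold changes were -0.80 for YAP1 and -0.69 for WWTR1 (edgeR adjusted p 0.0138 and 0.0311). Depletion of both RNAs was thus partial, and protein levels for these libraries are not given in the sources used here. On the first principal component of all tested genes, siCtrl replicate 2 lay at 7.17, beside the siYAP/TAZ libraries (9.85 to 33.9) and away from the other siCtrl libraries (-42.8 and -35.1). Of 10 markers of basal mammary epithelium, 10 were above 3 counts in every library, with summed levels of 2563 to 3414 CPM in siCtrl and 2076 to 2586 CPM in siYAP/TAZ. Of 5 markers of hormone-sensing luminal cells 3 were above that level throughout, as was 1 of 6 fibroblast markers (PDGFRA), while these sums overlapped between the groups. The fibroblast markers COL1A2 and COL3A1 and the leukocyte marker LYZ had 0 counts in every library. Leukocyte markers summed to 1.36 to 4.94 CPM over both groups. The 4 endothelial markers summed to 2.26 to 4.01 CPM in siCtrl against 5.67 to 12.9 CPM after depletion. PECAM1 had 6, 4 and 4 counts in siCtrl against 14, 29 and 18 after depletion. KDR had 2, 2 and 1 against 4, 5 and 11, while VWF and CDH5 overlapped between the groups. The part of these markers in the results was not tested.

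Among the members with enough reads to be tested, DKK1 had the largest difference, at 21.7% of its control level after depletion of YAP and TAZ, while the log2 fold changes of the other 6 tested members lay between -0.15 and 0.42. Of the 10 members, 7 passed the low-count filter, and WNT7A, WNT7B and WNT10A did not. By the edgeR quasi-likelihood test at an adjusted p of 0.05, 0 of the 7 passed, where 1.96% of all 12510 genes tested did. At an unadjusted p under 0.05, DKK1 was lower and TCF7L2 higher, 2 of 7, beside 17.7% of all genes. Libraries of the same number deviated together, and with that number as a block DKK1 passed, 1 of 7 beside 10.1% of all genes (5.44% lower and 4.66% higher). DESeq2 and edgeR with no low-count filter gave p-values for all 10 members among 19181 genes. Any gene that DESeq2 left without an adjusted p by its default filter stayed in that total and could not be called. Each called DKK1 alone of the members, beside 3.06% and 2.9% of these genes. Without both libraries with conflicting labels edgeR also called DKK1, 1 of 7 beside 9.29% of 12729 genes. Without siCtrl replicate 2 both DKK1 and TCF7L2 passed, beside 12.3% of all genes. The libraries of the groups did not overlap for 3 of the 7, DKK1, LRP6 and TCF7L2, beside 22.1% of all genes (11.1% lower and 11% higher). Some genes below kept the same direction within each replicate number, and the share of all genes that do so was not counted. The median log2 fold change of the 7 was 0.038, against -0.00093 over all genes tested. The study's methods call the replicates of its RNA-Seq samples biological, and the labels do not say whether these libraries came from separate cultures, so p-values measure the spread between these libraries. In such bulk libraries, fewer cells that make an RNA and less RNA per cell cannot be told apart.

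**Figure D1:**
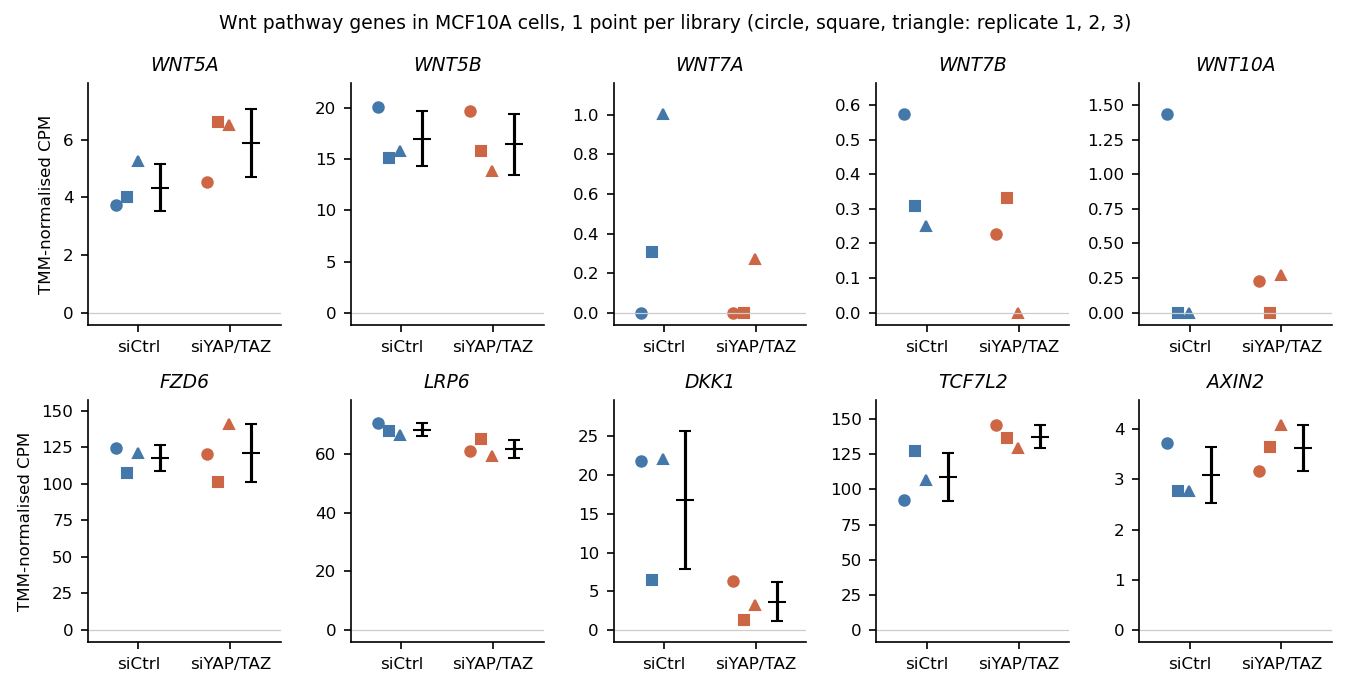
TMM-normalised CPM (y axis, linear) of the 10 Wnt genes in each siCtrl (blue) and siYAP/TAZ (orange) library, with circles, squares and triangles for replicates 1, 2 and 3 and the mean ± SD (n = 3) in black for the 7 genes that were tested. DKK1 lies at 6.48 to 22.1 CPM in siCtrl and 1.32 to 6.35 CPM in siYAP/TAZ, and DKK1, LRP6 and TCF7L2 are the tested genes whose groups do not overlap.

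Counts from a 3′ kit follow the number of transcripts rather than their length, so levels may be compared between genes without dividing by length. TCF7L2 and FZD6 were the most abundant members, with means of 123 and 119 CPM over all 6 libraries, and their ranges overlapped. LRP6 followed at 65.1 CPM, below every library of those genes. WNT5B had 16.8 CPM. Reads of WNT5B and LRP6 are uncertain because of overlapping genes, as given below, and so are their places in this order. The place of DKK1 differed by group, since its mean of 16.8 CPM in siCtrl lay beside the 17.02 CPM of WNT5B, and its 3.64 CPM after depletion lay below the 5.89 CPM of WNT5A and beside the 3.63 CPM of AXIN2. WNT5A (5.12 CPM) and AXIN2 (3.36 CPM) were low with overlapping ranges, and WNT7A, WNT7B and WNT10A averaged 0.264, 0.282 and 0.322 CPM. The upper limit for a count of 0 is 3 counts, or 0.680 to 0.992 CPM by library, and it covers counting error only.

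Among the ligands, WNT5A, a ligand of the β-catenin-independent branch, had 13, 13 and 21 counts in siCtrl against 20, 20 and 24 after depletion, or 3.73, 4.01 and 5.28 against 4.53, 6.61 and 6.53 CPM. It was higher in the siYAP/TAZ library of each of the 3 replicate numbers, but siYAP/TAZ replicate 1 lay below siCtrl replicate 3. The means were 4.34 ± 0.823 and 5.89 ± 1.18 CPM (SD, n = 3), with a log2 fold change of 0.42 (95% interval -0.30 to 1.14, edgeR adjusted p 0.543). At this depth the interval reached from 80.95% to 220.01% of the control level. WNT5A (Entrez 7474) lies on GRCh37 chromosome 3 (55499743 to 55524567, minus strand) and shares its span with no other counted gene.

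WNT5B, the closest relative of WNT5A, had 20.1, 15.1 and 15.8 CPM in siCtrl against 19.7, 15.9 and 13.9 CPM after depletion, so the groups overlapped throughout. Its log2 fold change was -0.040 (95% interval -0.55 to 0.47, adjusted p 0.945), and it took the opposite sign without siCtrl replicate 1 (0.095) or siYAP/TAZ replicate 3 (0.074). The annotated span of WNT5B (Entrez 81029, GRCh37 chromosome 12, 1639057 to 1756378, plus strand) contains FBXL14, a ubiquitin ligase subunit gene on the minus strand. FBXL14 had 67, 49, 62, 86, 49 and 48 counts in the 6 libraries where WNT5B had 70, 49, 63, 87, 48 and 51. The counts of both genes differed by at most 3 in any library. The 3′ end of WNT5B, near which its own reads would start in such libraries, lies outside FBXL14. Whether strand was used in counting is not stated, so the reads of either gene are uncertain, and how many belong to WNT5B was not tested.

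WNT7A, WNT7B and WNT10A, ligands known from skin and other epithelia, were close to absent from these libraries. WNT7A had 0, 1 and 4 counts in siCtrl against 0, 0 and 1 after depletion. WNT7B had 2, 1 and 1 against 1, 1 and 0, and WNT10A had 5, 0 and 0 against 1, 0 and 1. No library of any of the 3 exceeded 5 counts. By GRCh37 WNT7A (Entrez 7476) lies on chromosome 3 (13857755 to 13921568, minus strand), WNT7B (Entrez 7477) on chromosome 22 (46316246 to 46373042, minus strand) and WNT10A (Entrez 80326) on chromosome 2 (219745574 to 219764303, plus strand). With so few reads no difference could be detected, and no fold is given.

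Of all 19 Wnt ligand genes, 3 passed the low-count filter, and WNT1 had 0 counts in every library. WNT5B took 36.2% ± 6.41 of all ligand counts in siCtrl and 28.3% ± 6.90 in siYAP/TAZ (SD, n = 3), with the reservation on its reads above. WNT2B took 34.02% ± 14.4 and 45.6% ± 4.48. Its share in siCtrl replicate 2 was 50% (Wilson 95% interval 42.3% to 57.7%), above the 40.4% to 48.6% of the siYAP/TAZ libraries and far above the 22.2% (16.5% to 29.2%) and 29.8% (23.6% to 36.9%) of siCtrl replicates 1 and 3. WNT5A took 9.25% ± 2.04 and 9.97% ± 1.45. A library held 160 to 240 ligand counts in all, which limits each of these shares, and the intervals cover counting error only. The total includes the uncertain reads of WNT5B and of WNT2B (given below), 32% and 40.3% of the pooled ligand counts, so every share depends on them.

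WNT2B, a ligand of the β-catenin branch, had 10.3, 24.7 and 13.6 CPM in siCtrl against 21.98, 30.1 and 28.6 CPM after depletion. Within each replicate number it was higher in siYAP/TAZ, at 213%, 122% and 210% of the matching siCtrl library. The log2 fold change was 0.73 (SE 0.31, edgeR adjusted p 0.257), and with the replicate block it was 0.79 (SE 0.22, adjusted p 0.0462). With 1 library left out it ran from 0.50 (adjusted p 0.524, without siCtrl replicate 1) to 1.16 (0.0128, without siCtrl replicate 2), and it passed in the latter alone of these 6 fits. Without both libraries with conflicting labels it was 1.07 (edgeR adjusted p 0.0304). The last 6652 bases of WNT2B overlap ST7L on the opposite strand, which had 112, 72 and 130 counts in siCtrl against 142, 92 and 142 after depletion beside 36, 80 and 54 and 97, 91 and 105 for WNT2B. Reads of either gene are uncertain, and the part of ST7L in the difference was not tested.

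**Figure D2:**
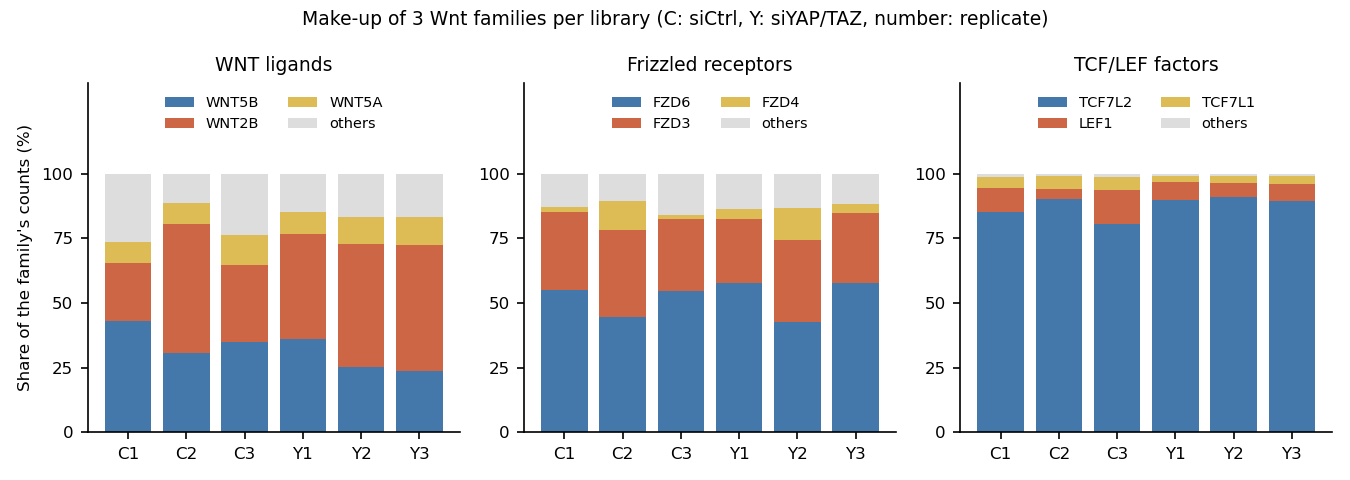
Share (y axis, percent) of all counts of the 19 Wnt ligands, the 10 Frizzled receptors and the 4 TCF/LEF factors that each named gene took in a library (C for siCtrl and Y for siYAP/TAZ, with the replicate number). By deposited counts WNT5B and WNT2B lead the ligands, FZD6 and FZD3 the receptors, and TCF7L2 takes 80.4% to 90.99% of the TCF/LEF counts in every library. The reads of WNT5B and WNT2B are uncertain, since each overlaps a gene on the opposite strand, so their lead is too.

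Among the receptors, FZD6, a Frizzled of the planar polarity branch, had 124, 108 and 121 CPM in siCtrl against 120.3, 101.5 and 141 CPM after depletion. The lowest library of each group was replicate 2, and the groups overlapped. With means of 118 ± 8.88 and 121 ± 19.7 CPM (SD, n = 3), its log2 fold change was 0.038 (95% interval -0.30 to 0.37, edgeR adjusted p 0.922). The interval runs from 81.4% to 129.5% of the control level. FZD6 (Entrez 8323) lies on GRCh37 chromosome 8 (104310661 to 104345094, plus strand) and shares 340 bases at its 5′ end with BAALC-AS1, which had at most 58 counts.

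FZD6 made up 51.3% ± 5.90 of the counts of the 10 Frizzled genes in siCtrl and 52.7% ± 8.57 in siYAP/TAZ. The other abundant receptor, FZD3, took 30.6% ± 2.896 and 27.8% ± 3.59. FZD4 varied widely between libraries, with 4.02, 27.5 and 3.27 CPM in siCtrl against 8.16, 29.1 and 8.98 CPM after depletion. Both high values belong to replicate 2. Its log2 fold change was 0.41 (SE 0.77, edgeR adjusted p 0.829), and it was 2.04 (adjusted p 0.0490) when siCtrl replicate 2 was left out and -0.40 when siYAP/TAZ replicate 2 was. The 3′ end of FZD4 lies inside PRSS23 on the opposite strand, and PRSS23 had 41, 255 and 58 counts in siCtrl against 89, 180 and 83 after depletion, also highest in replicate 2. The summed level of all Frizzled genes was 230.3 ± 10.3 CPM in siCtrl against 230.01 ± 18.99 CPM after depletion.

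LRP6, the co-receptor that DKK1 binds, had 70.7, 67.9 and 66.6 CPM in siCtrl against 60.97, 65.1 and 59.3 CPM after depletion. Every siYAP/TAZ library lay below every siCtrl library, and the means were 68.4 ± 2.07 and 61.8 ± 3.00 CPM (SD, n = 3). The log2 fold change of -0.15 (95% interval -0.43 to 0.14) did not pass, with an edgeR adjusted p of 0.597 and 0.504 with the replicate block. LRP6 took 83.6% ± 1.80 of the counts of LRP5 and LRP6 in siCtrl and 83.9% ± 1.56 in siYAP/TAZ. The 3′ end of LRP6 (Entrez 4040, GRCh37 chromosome 12, 12268959 to 12419978, minus strand) lies inside the annotated span of BCL2L14 on the plus strand. BCL2L14 was counted at 441 to 602 in siCtrl and 383 to 593 in siYAP/TAZ, above LRP6 in 6 of 6 libraries, so how these reads were assigned is uncertain.

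**Figure D3:**
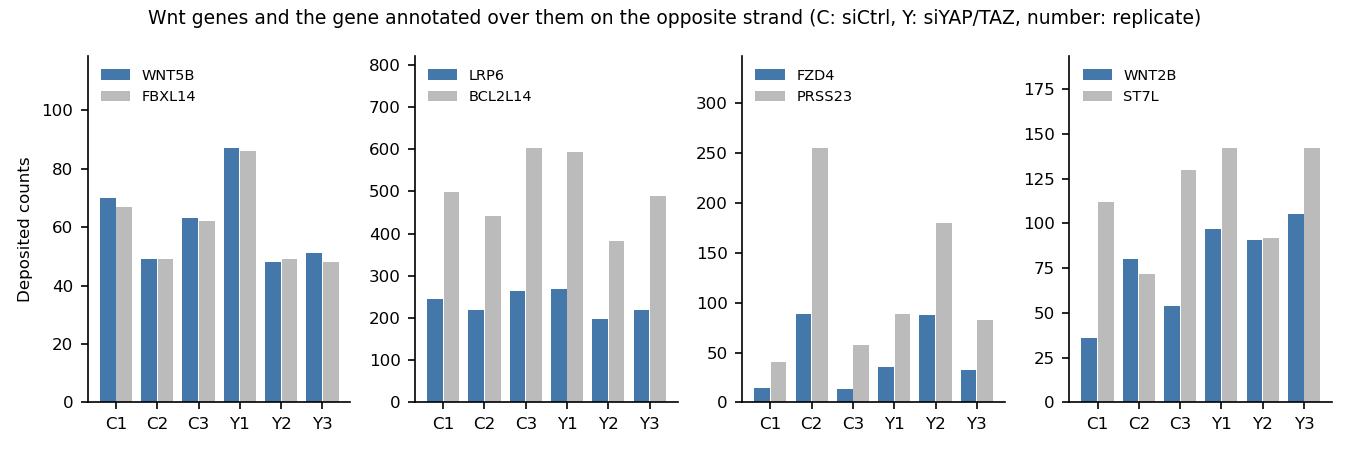
Deposited counts (y axis) of WNT5B, LRP6, FZD4 and WNT2B (blue) and of the gene annotated on the opposite strand over part of each (grey), in the 3 siCtrl (C) and 3 siYAP/TAZ (Y) libraries. The bars of WNT5B and FBXL14 differ by at most 3 counts in every library, and PRSS23 and FZD4 are both highest in the replicate 2 libraries.

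DKK1, the secreted antagonist of LRP5 and LRP6, had 76, 21 and 88 counts in siCtrl against 28, 4 and 12 after depletion. In CPM these were 21.8, 6.48 and 22.1 against 6.35, 1.32 and 3.26. The groups only just failed to touch, because siCtrl replicate 2 (6.48 CPM) was barely above siYAP/TAZ replicate 1 (6.35 CPM). Replicate 2 was the lowest library in each group, and within the replicate numbers the siYAP/TAZ library held 29.1%, 20.4% and 14.8% of its siCtrl partner. The mean was 16.8 ± 8.94 CPM in siCtrl against 3.64 ± 2.53 CPM after depletion (SD, n = 3), which is 21.7% of the control level.

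The log2 fold change of DKK1 was -2.14 (SE 0.55, 95% interval -3.38 to -0.89), with p of 0.00351 before and 0.0867 after adjustment in edgeR, so it did not pass without the block. With the replicate block DKK1 fell by 2.20 on the log2 scale (SE 0.30, 95% interval -2.87 to -1.54, adjusted p 0.00169). DESeq2 gave -2.18 with an adjusted p of 0.00321. Without siCtrl replicate 2 the value was -2.50 (adjusted p 0.00405), and without both libraries with conflicting labels it was -2.16 (0.00431). Leaving out any other single library kept it above the threshold, with adjusted p-values of 0.0756 to 0.314. Grouped by title the value was -1.50 (adjusted p 0.898), and over the other alternatives that could be fitted it ran from -2.82 to -1.79.

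DKK1 (Entrez 22943) lies on GRCh37 chromosome 10 (54074041 to 54077802, plus strand). It overlaps only the lncRNA PRKG1-AS1, by 227 bases at its 5′ end, a gene with at most 3 counts in a library. Because DKK1 was the tested member whose level differed most, the bases just before its start site were read from the RefSeq promoter table. They matched GRCh37 at chr10:54073791-54074040 (plus strand) exactly and at no other place on that chromosome. The capitals mark GGAATG, the core of the site that TEAD factors bind, the partners through which YAP and TAZ reach DNA. It spans positions -50 to -45 from the start site.

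DKK1, 250 bases before the start site, 5′ to 3′: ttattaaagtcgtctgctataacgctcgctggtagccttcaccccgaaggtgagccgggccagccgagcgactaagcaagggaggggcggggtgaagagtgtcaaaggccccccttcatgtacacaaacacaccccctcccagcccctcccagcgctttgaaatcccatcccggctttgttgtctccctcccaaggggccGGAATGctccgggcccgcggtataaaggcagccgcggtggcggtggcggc

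Windows of 300 bases, from 250 before to 50 after a start site, were in the table for 6 of the 10 members (WNT5A, WNT5B, WNT7A, WNT10A, DKK1 and TCF7L2), with 10 windows in all. Searched on both strands, GGAATG was found in the DKK1 window and in 0 of the other 9. It occurs in 14% of all 35116 windows. The AP-1 motif TGANTCA, in 7.71% of all windows, and CTTTGAT, a single form of the TCF/LEF motif, in 2.62%, were found in 0 of the 10. Other forms of the TCF/LEF motif were not searched. CTTTG followed by other bases does stand in the DKK1 sequence printed above. A match of letters is a description and not a bound site, and enhancers outside these windows were not searched.

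**Figure D4:**
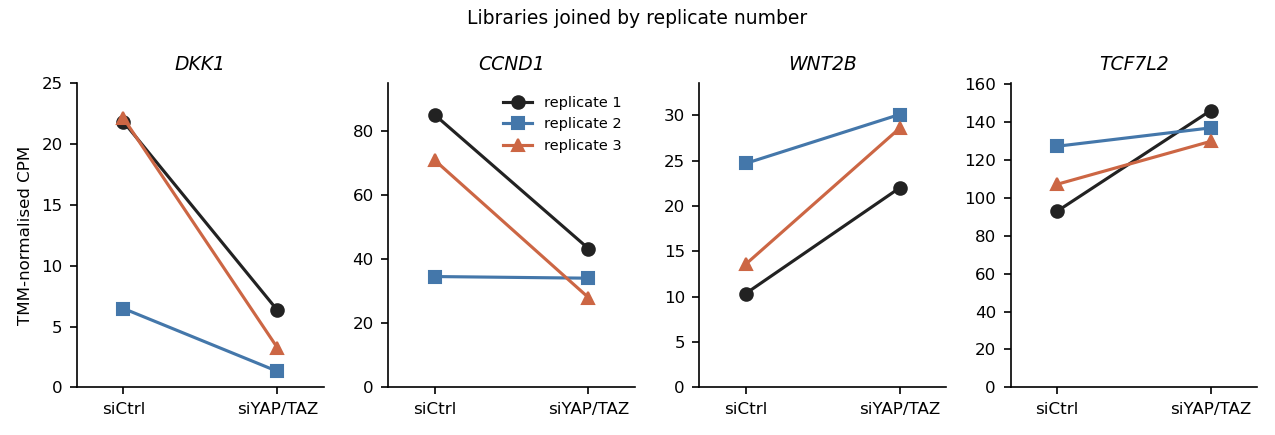
TMM-normalised CPM (y axis, linear, from 0) of DKK1, CCND1, WNT2B and TCF7L2 in siCtrl and siYAP/TAZ, with the libraries of each replicate number joined by a line. DKK1 falls along each of the 3 lines, and CCND1 is at 50.9%, 98.5% and 39.5% of its control for replicates 1, 2 and 3.

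Among the other antagonists of the pathway, SFRP1, a secreted decoy for Wnt ligands, was the most abundant gene of the whole list, at 403 ± 61.96 CPM in siCtrl against 405 ± 40.8 CPM after depletion (SD, n = 3). Its log2 fold change was 0.0065 (95% interval -0.34 to 0.35, edgeR adjusted p 0.989), and its sign changed with the scaling, at -0.020 by library size alone. KREMEN1, a DKK1 receptor, had 9.48, 12.96 and 14.6 CPM in siCtrl against 11.1, 19.8 and 32.1 CPM after depletion (0.76 ± 0.37 SE on the log2 scale, adjusted p 0.321). DKK3 had at most 1 count in a library and DKK4 at most 2, while DKK2 had 8 to 22 counts. The antagonists SFRP2, SFRP4, SFRP5, NOTUM and SOST had 0 counts in every library. DKK2, DKK3, DKK4 and these 5 were named after their values were seen.

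TCF7L2, a TCF/LEF factor that brings β-catenin to DNA, had 92.8, 127 and 107 CPM in siCtrl against 146, 137 and 130 CPM after depletion. Every siYAP/TAZ library was above every siCtrl library, the nearest being siYAP/TAZ replicate 3 and siCtrl replicate 2. The mean was 109 ± 17.3 CPM in siCtrl against 137.5 ± 8.14 CPM after depletion (SD, n = 3), with a log2 fold change of 0.34 (95% interval 0.010 to 0.66) and an unadjusted p of 0.0443. The adjusted p was 0.271 in edgeR and 0.126 with the replicate block. It passed in 1 of 15 alternatives, without siCtrl replicate 2 (0.46, adjusted p 0.0459), and was 0.23 (adjusted p 0.559) without siCtrl replicate 1. TCF7L2 (Entrez 6934) lies on GRCh37 chromosome 10 (114710006 to 114927437, plus strand) and shares its span with no other counted gene.

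TCF7L2 made up 85.3% ± 4.99 of the counts of the 4 TCF/LEF genes in siCtrl and 90.04% ± 0.854 in siYAP/TAZ. The range was 80.4% to 90.4% in siCtrl and 89.3% to 90.99% in siYAP/TAZ, so siCtrl replicate 2 lay within the siYAP/TAZ range. LEF1 took 8.65% ± 4.88 and 6.22% ± 0.831 and TCF7L1 4.85% ± 0.557 and 2.91% ± 0.433. Among the nuclear cofactors, TLE1, a corepressor of TCF/LEF factors, had 38.2, 64.5 and 39.2 CPM in siCtrl against 56.7, 54.5 and 55.5 CPM after depletion. Its log2 fold change was 0.24 (edgeR adjusted p 0.602, and 0.364 with the replicate block), with 0.52 (0.0404) without siCtrl replicate 2 and 0.11 (0.874) without siCtrl replicate 1. BCL9L, a β-catenin cofactor, differed by -0.19 ± 0.19 SE on the log2 scale (adjusted p 0.648), and its 3′ end lies inside CXCR5 on the opposite strand.

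AXIN2, a feedback inhibitor and widely used readout of β-catenin activity, had 13, 9 and 11 counts in siCtrl against 14, 11 and 15 after depletion. In CPM these were 3.73, 2.78 and 2.76 against 3.17, 3.64 and 4.08, and the groups overlapped. The means were 3.09 ± 0.556 and 3.63 ± 0.453 CPM (SD, n = 3). The log2 fold change was 0.23 (95% interval -0.55 to 1.00, edgeR adjusted p 0.783). At 9 to 15 counts a library the interval spans 68.4% to 199.8% of the control level. AXIN2 (Entrez 8313) lies on GRCh37 chromosome 17 (63524681 to 63557766, minus strand) and shares its span with no other counted gene.

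The other target genes of the list were CCND1, MYC and 5 genes that did not pass the filter. CCND1, which encodes cyclin D1 of the G1 phase and has many inputs besides Wnt, had 85.01, 34.6 and 70.9 CPM in siCtrl against 43.3, 34.1 and 28.01 CPM after depletion. The replicate 2 libraries were nearly equal, with 98.5% of the control level, and the other pairs had 50.9% and 39.5%. The log2 fold change was -0.85 (SE 0.30, edgeR adjusted p 0.191), and with the replicate block CCND1 fell by 0.82 on the log2 scale (SE 0.21, adjusted p 0.0377). With 1 library left out it ran from -1.14 (adjusted p 0.00448, without siCtrl replicate 2) to -0.59 (0.461, without siCtrl replicate 1), and the other 5 of these 6 fits did not call it. Without both libraries with conflicting labels it was -1.11 (edgeR adjusted p 0.0102). The 3′ end of CCND1 overlaps LTO1 by 1399 bases on the opposite strand, which had 23 to 70 counts where CCND1 had 103 to 296. MYC had 277 ± 26.01 CPM in siCtrl against 240 ± 51.2 CPM after depletion (-0.21 ± 0.17 SE on the log2 scale, adjusted p 0.572).

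The wider pathway was described with a list of 106 genes, the 10 members included, sorted by role. Of these 61 passed the low-count filter and 8 had 0 counts in every library. At an edgeR adjusted p of 0.05, 0 were lower and 0 higher, beside 1.22% lower and 0.743% higher over all genes tested. At an unadjusted p under 0.05, 5 were lower (ROR1, DKK1, RNF43, PYGO1 and CCND1) and 5 higher (WNT2B, TCF7L2, TLE4, CELSR2 and CELSR3), beside 9.27% lower and 8.4% higher over all genes. ROR1, RNF43, PYGO1, TLE4, CELSR2 and CELSR3 were named after their values were seen. With the replicate block DKK1 and CCND1 were lower and WNT2B higher, 3 of 61 beside 10.1% of all genes. DESeq2 called DKK1 alone of 98 with a p-value, beside 3.06% of 19181 genes. The median log2 fold change of the 61 was -0.066, against -0.00093 over all genes.

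The destruction complex and cytoplasmic relay degrade β-catenin or pass the signal on. All 15 were tested, 0 passed at an unadjusted p under 0.05 in edgeR, beside 17.7% of all genes, and their log2 fold changes ran from -0.28 to 0.37 with a median of -0.030. For 9 of these 15 the 95% interval lay within a 1.5-fold change in either direction, beside 20 of the 61 tested genes of the list. The share over all genes tested was not counted, so the 9 cannot be set against it. The kinase gene CSNK1A1, which primes β-catenin for degradation, had 395 ± 79.4 CPM in siCtrl against 358 ± 23.9 CPM after depletion. The tankyrase gene TNKS2, which marks AXIN for degradation, had 225 ± 40.4 and 185.5 ± 20.2 CPM, with an edgeR adjusted p of 0.397.

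Of the ligand secretion genes, WLS, the carrier of Wnt proteins to the cell surface, had 53.4, 67.9 and 63.1 CPM in siCtrl against 59.6, 92.2 and 93.3 CPM after depletion. It was higher in siYAP/TAZ within each replicate number but did not pass (0.41 ± 0.19 SE on the log2 scale, edgeR adjusted p 0.310 and 0.0886 with the block). Its 3′ end lies inside GNG12-AS1, which was counted above WLS in 6 of 6 libraries. PORCN, the enzyme that attaches the lipid to Wnt proteins, had 8 to 21 counts and a log2 fold change of -0.16 (95% interval -1.01 to 0.70). Among the other receptors, RYK and PTK7 had 81.1 ± 8.38 and 64.6 ± 10.8 CPM in siCtrl against 76.5 ± 4.34 and 60.6 ± 12.7 CPM after depletion, with adjusted p-values of 0.793 and 0.839.

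Of the R-spondin axis, which raises Frizzled at the cell surface, RSPO1 had 120.4 ± 16.05 CPM in siCtrl against 114 ± 28.3 CPM after depletion, and its receptor LGR4 had 76.8 ± 10.4 and 62.02 ± 10.1 CPM. LGR4 was lower within each replicate number (-0.31 ± 0.17 SE on the log2 scale, edgeR adjusted p 0.366). In the planar polarity branch 7 of 9 genes were tested, with 2 log2 fold changes below 0 and 5 above, and 0 passed in edgeR (2, CELSR2 and CELSR3, were higher at an unadjusted p under 0.05, beside 8.4% of all genes). Its most abundant genes, DAAM1 and PRICKLE1, had log2 fold changes of -0.40 (SE 0.22, adjusted p 0.379) and -0.25 (SE 0.16, adjusted p 0.454). The 3′ end of PRICKLE1 lies inside PPHLN1 on the opposite strand.

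**Figure D5:**
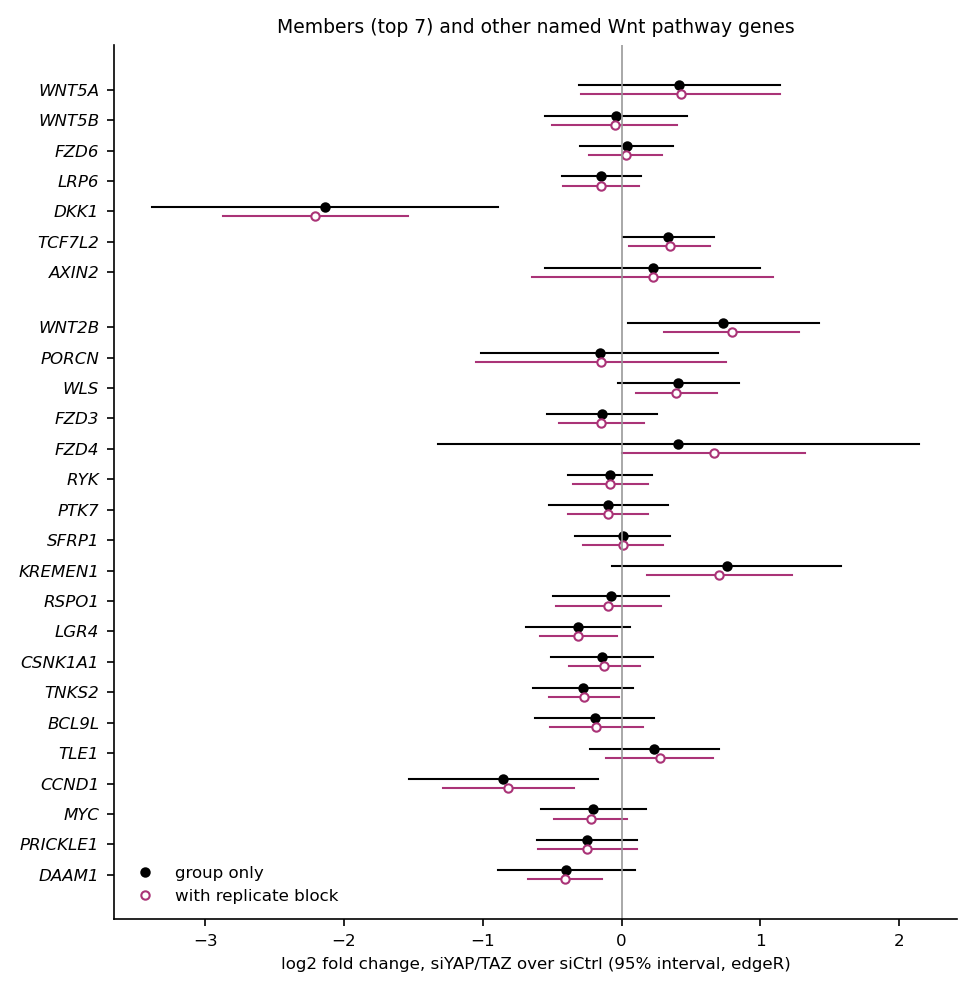
Log2 fold change of siYAP/TAZ over siCtrl (x axis) with its 95% interval from edgeR, for the 7 members tested (top) and the other named genes of the pathway, with group as the only term (filled) and with the replicate block (open). The DKK1 interval, -3.38 to -0.89 without the block, lies farthest from 0, and most others include 0.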

How the data were processed

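Raw counts per Entrez gene of 6 libraries were deposited by the authors in a single table, without normalisation. The submitters' processing notes name hg19, cutadapt 4.2 and Bowtie2 2.3.5.1. For RNA-Seq in general, the methods give trimming, alignment to hg19 and counting of overlaps in R. Annotation and strand use for these libraries are not given in the sources used here. Symbols came from RefSeq GRCh38.p14 (23308 IDs matched, 99.7% of counts), and coordinates from GENCODE 44 on GRCh37, the same as hg19.

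Counts were tested with edgeR 4.0.16 in R 4.3.3 (quasi-likelihood F test, default low-count filter, TMM, group as the only term, Benjamini-Hochberg over 12510 genes). The same comparison was made with DESeq2 1.42.0, with scaling by RLE or by library size only, unfiltered, for genes averaging 50 counts or more, with robust dispersion, with the replicate block, with groups by title, without both libraries with conflicting labels, and without each library. The group-only and blocked edgeR fits and the DESeq2 fit were also run on simulated counts with a single dispersion and no outlying library. That check does not cover a library such as siCtrl replicate 2. Standard errors and intervals come from the fold change and its F statistic.

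Same-numbered libraries of the groups deviated together from their group means across genes (r of 0.41, 0.34 and 0.13 for replicates 1, 2 and 3). Their mean r was 0.30, against 0.092 for the highest mean of the 5 other pairings. Each r exceeded 0.1, and the numbers from the description field were taken to pair the libraries. With so few possible pairings and a low r for replicate 3 the pairing is uncertain, and the calls made with the block rest on it. No 2 libraries were identical, and chi-square per degree of freedom within groups was 5.76 to 18.9.

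The members and lists were chosen with earlier results of these data known. Named were the 10 members, YAP1 and WWTR1, list genes called with or without the block, and in each role the 2 other genes of highest mean CPM. That rule also took WNT9A, with 3 to 16 counts a library and below the filter.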

Additional observations from a re-analysis of the deposited data

How the results depend on the processing

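Over all genes, 245 passed an adjusted p of 0.05. DESeq2 called 587, the fit without a low-count filter 556, the replicate block 1263, the fit without both libraries with conflicting labels 1183 and the grouping by title 0 (464 at an unadjusted p under 0.05), and leaving out 1 library gave 16 to 1579. Of the members, 0 passed. DESeq2, no filter, the block and leaving out both conflicting libraries each gave 1, DKK1, and leaving out 1 library gave 0 to 2. Of the list, 0 passed, against 1 with DESeq2, 1 with no filter, 3 with the block and 3 without the conflicting libraries, and 0 to 8 with 1 library left out. The replicate block changed no other call among the named genes.

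With groups by title, YAP1 and WWTR1 had log2 fold changes of -0.26 and -0.22 and did not pass. With 1 library left out they ranged from -0.84 to -0.77 and from -0.75 to -0.62. YAP1 then lost its call in 3 of these 6 fits (adjusted p 0.0606 to 0.112), those lacking siYAP/TAZ replicate 2, siYAP/TAZ replicate 3 or siCtrl replicate 3, and WWTR1 passed only without siCtrl replicate 2 (0.0602 to 0.176 in the other 5 fits). The sign changed by title for WNT5A (-0.043), AXIN2 (-0.0042), PORCN (0.56), RYK (0.046), PTK7 (0.082), SFRP1 (-0.22) and CSNK1A1 (0.12). It also changed for SFRP1 with DESeq2 (-0.0014), library size alone (-0.020) or without the conflicting libraries (-0.15), and for PORCN in that last fit (0.30). With 1 library left out, the values spanned 0 for WNT5B (-0.20 to 0.095), FZD6 (-0.082 to 0.15), PORCN (-0.38 to 0.13), FZD4 (-0.40 to 2.04), RYK (-0.13 to 0.0052), PTK7 (-0.27 to 0.034), SFRP1 (-0.076 to 0.14), RSPO1 (-0.29 to 0.044) and CSNK1A1 (-0.24 to 0.038). The cause was not tested. Genes with few counts a library, AXIN2 and WNT5A among them, have wide intervals, and the part of depth in the changes of sign was not tested.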
